A study of Neurospora crassa with 24 samples.

Results

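Deletion of *ve-1*, a velvet gene of *Neurospora crassa*, left 7 of 9758 genes with more mRNA in each of the 3 kinds of culture that were kept in the dark. They were chosen by their counts scaled to library size (CPM): the mean CPM in the Δ*ve-1* mutant, with 0.2 CPM added, was at least 2 times that in the wild type in all 3, and the mean reached at least 5 CPM in one of the mutant groups. The rule found 10 genes, of which 3 that encode the methyltransferase LAE-1 and methyltransferase-like proteins were set aside by name (*lae-1*, NCU10101 and NCU10761). The 7 were *eph-3* (NCU08783), *fam-2* (NCU05858), *aod-3* (NCU04874), NCU01032, NCU10075, NCU04292 and NCU04282. Of the 9758 genes, 6960 had a mean of at least 5 CPM in a mutant group in the dark. Among these 6960, the ratio was at least 2 for 91 genes in the 48 h mycelia, 191 in the 24 h mycelia and 408 in the aerial tissue.

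The groups were Δ*ve-1* and the wild type, both with the strain background OR74A and differing in the deletion of *ve-1*. The conditions were V light and V dark, submerged mycelia after 48 h in liquid plates with or without light for the last 30 min, S, mycelia from 24 h shaken cultures in the dark, and A15 light and A15 dark, aerial tissue collected 15 h after transfer to solid medium with or without light for the last 30 min. S had 4 libraries of each strain, and the other conditions had 2. The labels give 22°C for every culture and name no mating type, and the methods of the study give another temperature for S and A15. The mutant is a deletion strain with no complemented strain among the libraries.

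VE-1 is a protein with a velvet domain, a fungal DNA-binding and protein-binding fold, and it acts in a complex with the velvet protein VE-2 and the methyltransferase LAE-1. The complex takes part in sexual and asexual development and in secondary metabolism, and it is best known from *Aspergillus nidulans*, where its VE-1 counterpart, VeA, responds to light. In *N. crassa*, the light treatment activates the photoreceptor complex of WC-1 and WC-2, and the transfer to air starts the growth of aerial hyphae that form conidia.

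The 24 libraries held between 14010994 and 21885041 counts, so that a floor of 3 counts lay between 0.137 and 0.214 CPM. The floor covers counting error only. The deleted gene was lower in every mutant library, with between 0.883 and 12.7 CPM in Δ*ve-1* and between 66.1 and 283 CPM in the wild type. The highest of the mutant values belonged to replicate 1 of S, where the other 3 mutant libraries had between 1.20 and 2.85 CPM. The correlation of log values between replicates was lowest, at 0.932, between that library and replicate 4 of the mutant in S. The tissues matched their labels by 6 genes of conidiation (*con-6*, *con-8*, *con-10*, *con-13*, *eas* and *fl*). Their summed level was between 125078 and 181351 CPM in the A15 libraries of the mutant and between 52775 and 128079 CPM in those of the wild type. It was at most 803 CPM in the V and S libraries of the mutant and at most 1470 CPM in those of the wild type.

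The dark libraries chose the genes, so their differences in the dark are described without a test, and the strains were tested in the 8 light libraries, which the choice did not use. In V light, the quasi-likelihood test of edgeR called all 7 genes higher in Δ*ve-1*, at an adjusted *P* value under 0.05, among 7671 genes tested. Of these 7671 genes, 206, or 2.69%, were called higher in the mutant. For 2 of the 7, *fam-2* and NCU04282, only the mutant libraries reached the minimum of the filter on low counts, so their calls carry no weight, and the other 5 were all called. The median log2FC was 1.88 for these 5, 2.13 for the 7 and −0.0012 over all genes tested. With all 8 light libraries in the fit, where 0.159% of genes were called higher in V, the call was kept by *eph-3*, *aod-3* and NCU01032, and lost by NCU10075 and NCU04292 (adjusted *P* values of 0.119 and 0.409). In A15 light, 4 of the 7 were called higher in the mutant (*eph-3*, *aod-3*, NCU01032 and NCU10075), beside 369 of 8064 genes, or 4.58%. The median log2FC was 1.37 for the 7 genes and −0.03 for all genes tested in A15. The call was not reached for *fam-2*, NCU04292 and NCU04282 in A15. None of the 7 was called lower in either stage, beside 359 of 7671 genes in V and 325 of 8064 in A15. None of the 7 was called in A15 when either mutant library was left out, but in these fits hardly any gene was: 7 of 8208 genes, or 0.0853%, were called higher without replicate 1, and 0 of 8220 without replicate 2, where 503 were higher at an unadjusted *P* value under 0.05. The log2FC was then 2.64 and 2.41 for *eph-3* and 2.74 and 2.12 for *aod-3*. The calls of NCU01032 and NCU10075 were lost with scaling by library size alone (adjusted *P* values of 0.0689 and 0.0725, 2.108% of genes called higher) and with the A15 dark libraries in the fit (0.0719 and 0.0824, 1.75% of genes). The 6 conidiation genes summed to between 125078 and 151189 CPM in Δ*ve-1* and between 52775 and 128079 CPM in the wild type in A15 light, and their part in these differences was not tested. In bulk RNA, more cells of a type and more RNA per cell cannot be told apart.

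**Figure D1:**
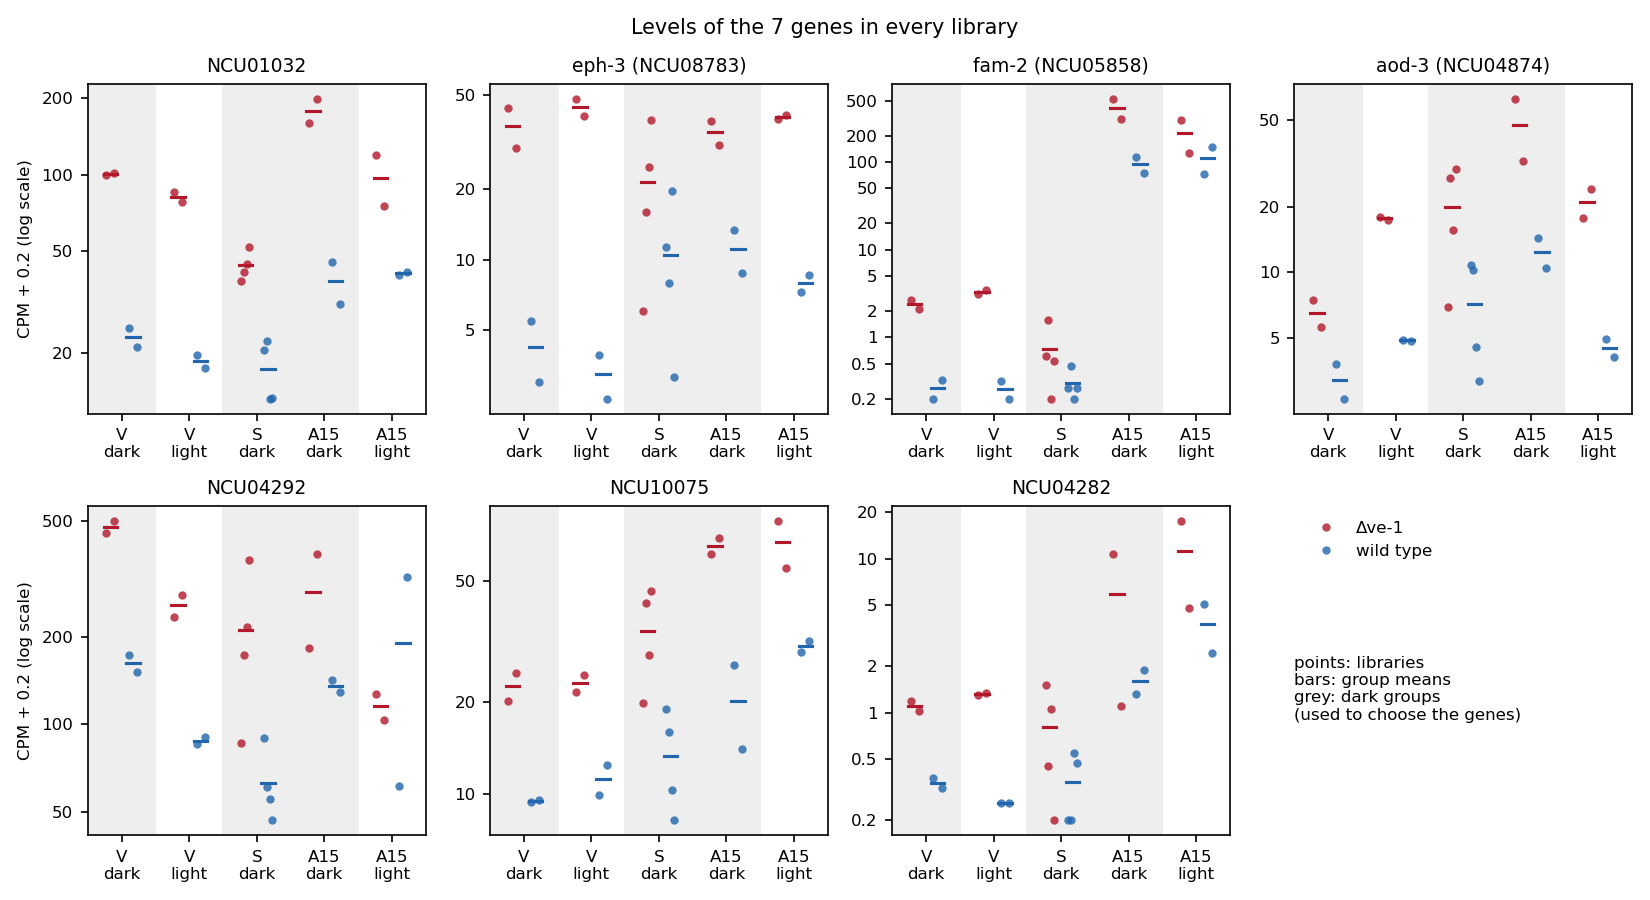
Levels of the 7 genes in each of the 24 libraries, in CPM with 0.2 added, on a log axis whose range differs between genes, with Δ*ve-1* in red to the left of the wild type in blue, bars for the group means and grey for the dark groups that chose the genes. For *eph-3* in V light, the mutant libraries had 47.8 and 40.7 CPM and the wild-type libraries 3.72 and 2.36 CPM, while for NCU04292 in A15 light the wild-type libraries had 61.4 and 319 CPM, below and above both mutant libraries.

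*eph-3* is annotated in the tables of the study as an epoxide hydrolase, an enzyme that opens epoxides to diols, and lies on chromosome III, bases 5135492 to 5136906, on the minus strand (NC12 assembly). In V dark, *eph-3* had 44.0 and 29.6 CPM in Δ*ve-1*, against 5.26 and 2.80 CPM in the wild type, a ratio of means of 8.75. In S, *eph-3* had 5.85, 15.7, 24.6 and 38.9 CPM in Δ*ve-1*, against 11.1, 7.74, 19.4 and 2.96 CPM in the wild type, a ratio of 2.05. The strains thus overlapped widely in S, where the highest library was 6.47 times the lowest in the mutant and 6.20 times in the wild type, on the scale with 0.2 CPM added. In A15 dark, *eph-3* had 38.6 and 30.6 CPM in Δ*ve-1*, against 13.1 and 8.60 CPM in the wild type, a ratio of 3.15.

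In the light, *eph-3* had the lowest adjusted *P* value of the 7 genes in both stages. In V light, *eph-3* had 47.8 and 40.7 CPM in Δ*ve-1*, against 3.72 and 2.36 CPM in the wild type, with a log2FC of 3.85 ± 0.20 (SE, n = 2 libraries in each strain; adjusted *P* value of 0.00146, edgeR). In A15 light, *eph-3* had 39.3 and 41.0 CPM in Δ*ve-1*, against 7.08 and 8.42 CPM in the wild type, with a log2FC of 2.52 ± 0.27 (SE; adjusted *P* value of 0.0157, edgeR). The mutant libraries lay far above those of the wild type in both stages. Means of *eph-3* were 44.3 CPM in V light and 40.1 CPM in A15 light in Δ*ve-1*, against 3.04 CPM in V light and 7.75 CPM in A15 light in the wild type. The strain effect was larger in V than in A15 by 1.33 ± 0.33 on the log2 scale (adjusted *P* value of 0.0485 for the interaction, edgeR), and *eph-3* was the only one of the 7 called, beside 3.93% of genes with a larger effect in V. That call lies close to the threshold. It was lost with the RLE normalization in edgeR (adjusted *P* value of 0.0543) and with the replicate number as a block (0.0655, edgeR). It was also lost in 6 of the 8 fits that left out 1 library, and it was kept with the test of DESeq2 (0.0207).

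*fam-2*, named a fatty acid oxygenase in the tables of the study, lies on chromosome VII, bases 4076847 to 4080943, on the minus strand. Fatty acid oxygenases of *A. nidulans* make oxylipins, hydroxylated fatty acids that act as signals in sporulation. *fam-2* was nearly silent in submerged mycelia. In V dark, *fam-2* had 2.45 and 1.92 CPM in Δ*ve-1*, against 0 and 0.122 CPM in the wild type. These are 87 counts of the mutant against 2 of the wild type. In S, *fam-2* had 0.414, 1.38, 0 and 0.332 CPM in Δ*ve-1*, against 0.0641, 0.269, 0 and 0.0672 CPM in the wild type, so that the ratio of 2.44 rests on 34 counts of the mutant and 6 of the wild type. Of the 34, replicate 2 held 22.

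In aerial tissue *fam-2* was abundant in both strains. In A15 dark, *fam-2* had 516 and 312 CPM in Δ*ve-1*, against 113 and 74.9 CPM in the wild type, a ratio of 4.40. The mean in A15 dark was 414 ± 144 CPM in Δ*ve-1* and 94.0 ± 27.1 CPM in the wild type (SD, n = 2 each), against means of 0.533 and 0.1001 CPM in S in the same strains. The gap between aerial tissue and submerged mycelia was therefore far wider than the gap between the strains. In V light, *fam-2* had 2.95 and 3.27 CPM in Δ*ve-1*, against 0.120 and 0 CPM in the wild type, 117 counts against 2, with a ratio of 53.0 relative to library totals (exact 95% interval between 14.3 and 442, for counting error only). The interval leaves out the spread between libraries and, like the call of *fam-2* in V light, carries no weight. In A15 light, *fam-2* had 303 and 126 CPM in Δ*ve-1*, against 71.9 and 148 CPM in the wild type. The libraries overlapped, and the log2FC of 1.05 ± 0.52 (SE) did not pass the test (adjusted *P* value of 0.237, edgeR). It was 1.74 without replicate 2 of the wild type, 0.59 without replicate 1, and 0.41 and 1.51 without replicates 1 and 2 of the mutant. Only the sizes are given, because a group of 1 library has no spread of its own.

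*aod-3* encodes an alternative oxidase, a mitochondrial enzyme that passes electrons from ubiquinol to oxygen and bypasses the cytochrome chain, and lies on chromosome IV, bases 576875 to 580204, on the plus strand. In V dark, *aod-3* had 7.25 and 5.44 CPM in Δ*ve-1*, against 3.58 and 2.43 CPM in the wild type, a ratio of 2.04, the smallest of the 7 in V. In S, *aod-3* had 6.74, 26.9, 15.5 and 29.7 CPM in Δ*ve-1*, against 10.6, 10.02, 4.35 and 2.96 CPM in the wild type, a ratio of 2.77. Replicate 1 of the mutant was the only mutant library of S below wild-type libraries. This library had the most *ve-1* counts of its group, and whether they bear on these levels was not tested. It was also the lowest mutant library of S for *eph-3*, NCU01032, NCU10075, NCU04292 and *lae-1*. For NCU04282, NCU10101 and NCU10761 it was the highest (1.30, 131 and 153 CPM). In A15 dark, *aod-3* had 62.3 and 32.5 CPM in Δ*ve-1*, against 14.3 and 10.3 CPM in the wild type, a ratio of 3.81.

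In the light the libraries of the 2 strains were well apart for *aod-3*. In V light, *aod-3* had 17.9 and 17.3 CPM in Δ*ve-1*, against 4.68 and 4.66 CPM in the wild type, with a log2FC of 1.88 ± 0.15 (SE; adjusted *P* value of 0.00367, edgeR). In A15 light, *aod-3* had 17.6 and 24.1 CPM in Δ*ve-1*, against 4.72 and 3.88 CPM in the wild type, with a log2FC of 2.44 ± 0.33 (SE; adjusted *P* value of 0.0236, edgeR). Its strain effect was not called different between the stages (difference of −0.56 on the log2 scale, 95% interval between −1.37 and 0.24). The 4 genes with an *aod* symbol in the reference table are 2 oxidase genes, *aod-1* and *aod-3*, and *aod-2* and *aod-5*, which encode the zinc cluster regulators of *aod-1*. In V light *aod-1* was also higher in the mutant, with between 58.3 and 68.4 CPM in Δ*ve-1*, against between 19.2 and 28.8 CPM in the wild type (log2FC of 1.39, adjusted *P* value of 0.0124, edgeR). In A15 light, *aod-1* had between 36.5 and 47.1 CPM in Δ*ve-1*, against between 49.4 and 54.7 CPM in the wild type (log2FC of −0.16, adjusted *P* value of 0.737). The regulators *aod-2* and *aod-5* were not called in either stage, with log2FC between −0.07 and 0.23.

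**Figure D2:**
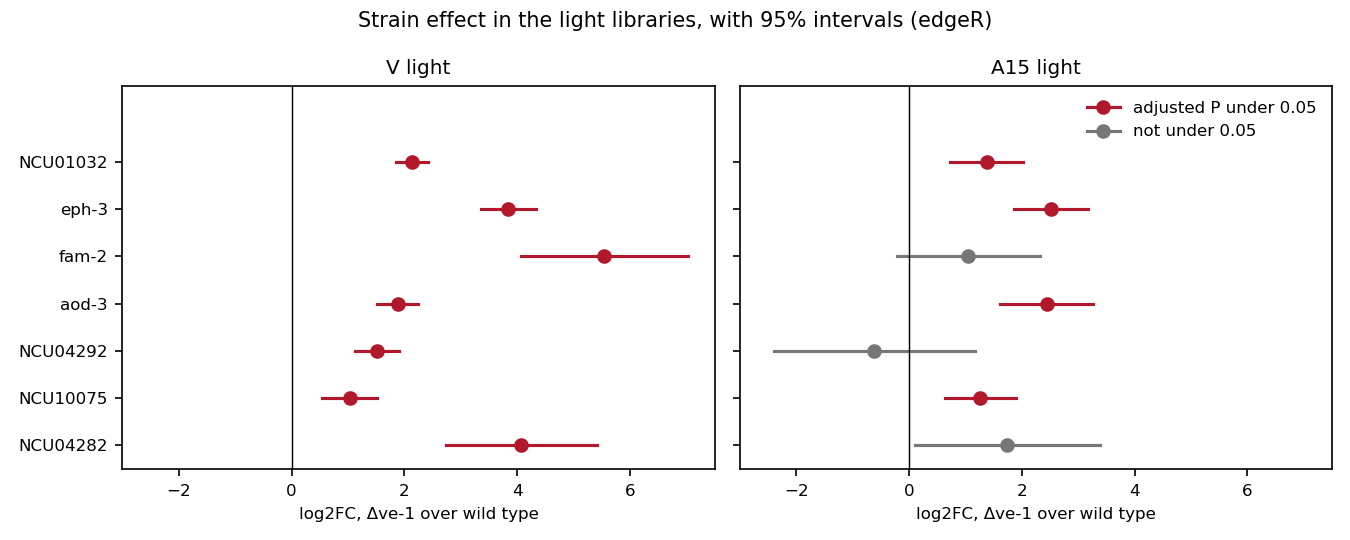
log2FC of the 7 genes, Δ*ve-1* over the wild type, in V (left) and A15 (right) in the light, with 95% intervals from edgeR and red where the adjusted *P* value was under 0.05. All 7 estimates are above 0 in V, whereas in A15 the estimate of NCU04292 was −0.62 with an interval between −2.40 and 1.16.

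The other 4 genes have no symbol in the reference table, and neither the tables of the study nor the reference gave a function for them. NCU01032 (chromosome V, bases 2719499 to 2722367, plus strand), a hypothetical protein in the tables of the study, was called higher in Δ*ve-1* in both stages in the light. In V dark, NCU01032 had 99.2 and 101 CPM in Δ*ve-1*, against 24.9 and 21.0 CPM in the wild type, a ratio of 4.33. In S, NCU01032 had 38.2, 41.4, 44.5 and 51.7 CPM in Δ*ve-1*, against 20.4, 22.0, 13.1 and 13.1 CPM in the wild type, a ratio of 2.55. In A15 dark, NCU01032 had 159 and 197 CPM in Δ*ve-1*, against 45.3 and 31.0 CPM in the wild type, a ratio of 4.65. Every mutant library of NCU01032 was above every wild-type library of its group, in all 5 conditions. The dark conditions among them had chosen the gene. In the light, such separation held for 31.0% of genes in V and 26.7% in A15, among genes with a mean of at least 5 CPM in the mutant. In V light, NCU01032 had 85.5 and 78.2 CPM in Δ*ve-1*, against 19.4 and 17.3 CPM in the wild type, with a log2FC of 2.13 ± 0.11 (SE; adjusted *P* value of 0.00153, edgeR). In A15 light, NCU01032 had 119 and 75.5 CPM in Δ*ve-1*, against 40.3 and 41.5 CPM in the wild type, with a log2FC of 1.37 ± 0.26 (SE; adjusted *P* value of 0.0389, edgeR).

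NCU10075 (chromosome I, bases 3049615 to 3054129, minus strand), also a hypothetical protein, was the other gene whose strains did not overlap in any of the 5 conditions. Again, the dark conditions among them had chosen the gene, and the same shares of genes apply in the light. In V dark, NCU10075 had 19.96 and 24.6 CPM in Δ*ve-1*, against 9.19 and 9.30 CPM in the wild type, a ratio of 2.38. In S, NCU10075 had 19.6, 41.9, 28.2 and 46.1 CPM in Δ*ve-1*, against 18.7, 15.7, 10.1 and 7.99 CPM in the wild type, a ratio of 2.56, and the lowest mutant library, replicate 1, was just above the highest of the wild type. In A15 dark, NCU10075 had 60.9 and 68.8 CPM in Δ*ve-1*, against 26.2 and 13.8 CPM in the wild type, a ratio of 3.22. Its light differences were modest. In V light, NCU10075 had 21.4 and 24.3 CPM in Δ*ve-1*, against 9.67 and 12.2 CPM in the wild type (log2FC of 1.03 ± 0.20, SE; adjusted *P* value of 0.0402, edgeR). In A15 light, NCU10075 had 78.2 and 54.8 CPM in Δ*ve-1*, against 28.9 and 31.6 CPM in the wild type (log2FC of 1.27 ± 0.26, SE; adjusted *P* value of 0.0421, edgeR). The call in V was lost without either mutant library, with adjusted *P* values of 0.143 and 0.169, and with all 8 light libraries in the fit (0.119). The gene model of NCU10076 overlaps NCU10075 by 540 bases on the opposite strand and had no count in any library.

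NCU04292 (chromosome V, bases 5522933 to 5525365, plus strand) was called higher in the mutant in V light and was not called in A15 light. In V dark, NCU04292 had 453 and 498 CPM in Δ*ve-1*, against 173 and 151 CPM in the wild type, a ratio of 2.93. In S, NCU04292 had 86.3, 172, 215 and 367 CPM in Δ*ve-1*, against 89.3, 60.5, 55.1 and 46.7 CPM in the wild type, a ratio of 3.33. Replicate 1 of the mutant was again the exception, at the level of the highest wild-type library. In A15 dark, NCU04292 had 182 and 384 CPM in Δ*ve-1*, against 142 and 128 CPM in the wild type, a ratio of 2.09. In V light, NCU04292 had 234 and 278 CPM in Δ*ve-1*, against 85.6 and 89.9 CPM in the wild type, with a log2FC of 1.52 ± 0.16 (SE; adjusted *P* value of 0.00704, edgeR). That call was lost with all 8 light libraries in the fit, at a log2FC of 1.53 (adjusted *P* value of 0.409).

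In A15 light, NCU04292 had 127 and 104 CPM in Δ*ve-1*, against 61.4 and 319 CPM in the wild type. The wild-type libraries lay on either side of both mutant libraries, and the log2FC of −0.62 ± 0.72 (SE) did not pass the test (adjusted *P* value of 0.614, edgeR). This value depended on single libraries: it was 1.10 without replicate 2 of the wild type and −1.38 without replicate 1. These 2 wild-type libraries also differed in the hydrophobin gene *eas*, which had between 40721 and 113425 CPM in them, against between 103150 and 125295 CPM in the mutant. Whether the conidial content of the cultures bears on NCU04292 was not tested.

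NCU04282 (chromosome V, bases 5488296 to 5489330, minus strand) had few counts in submerged mycelia. In V dark, NCU04282 had 0.981 and 0.822 CPM in Δ*ve-1*, against 0.173 and 0.122 CPM in the wild type, 36 counts against 5. In S, NCU04282 had 1.30, 0.252, 0.856 and 0 CPM in Δ*ve-1*, against 0, 0, 0.346 and 0.269 CPM in the wild type, 38 counts against 9. In A15 dark, NCU04282 had 10.5 and 0.895 CPM in Δ*ve-1*, against 1.11 and 1.68 CPM in the wild type, so that the ratio of 3.71 and the place of the gene among the 7 rest on 1 mutant library. In V light, NCU04282 had 1.09 and 1.14 CPM in Δ*ve-1*, against 0.0601 and 0.0575 CPM in the wild type, 42 counts against 2 (ratio of 19.0, exact 95% interval between 4.95 and 162, for counting error only). Like the call of NCU04282 in V light, this interval carries no weight. In A15 light, NCU04282 had 17.4 and 4.61 CPM in Δ*ve-1*, against 4.85 and 2.24 CPM in the wild type, and the log2FC of 1.74 ± 0.67 (SE) was not called (adjusted *P* value of 0.153, edgeR). It was 2.34 without replicate 1 of the wild type, 1.33 without replicate 2, and 0.65 and 2.39 without replicates 1 and 2 of the mutant.

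**Figure D3:**
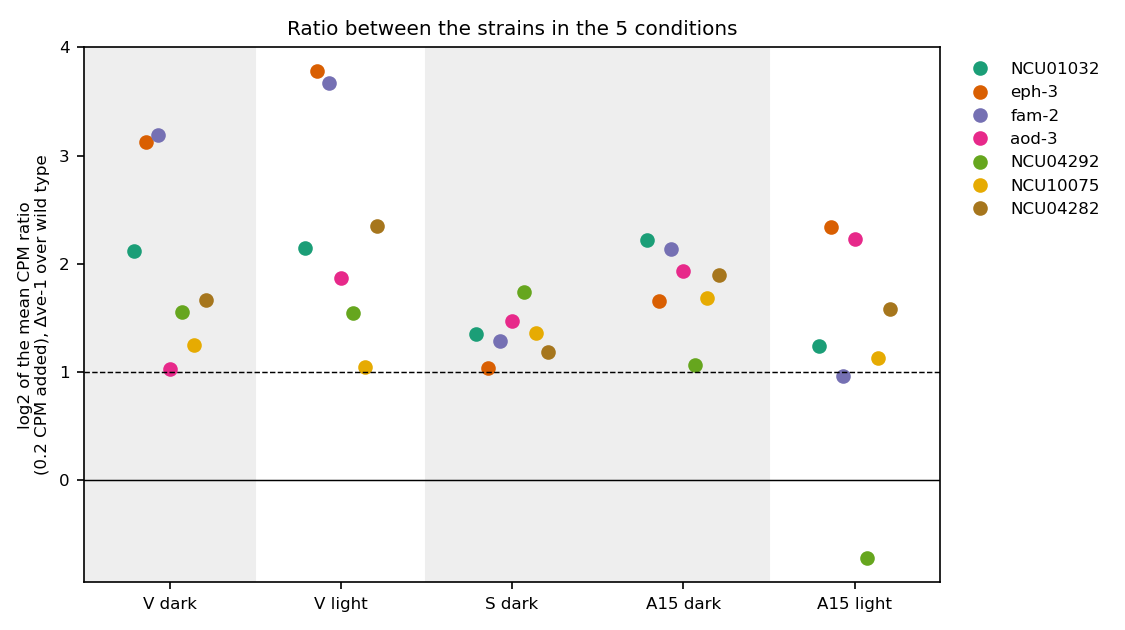
Ratio of the mean levels, Δ*ve-1* over the wild type with 0.2 CPM added, on the log2 scale for the 7 genes in the 5 conditions, with grey for the dark conditions that chose the genes and a dashed line at the ratio of 2. In V light all 7 genes are at a ratio of at least 2.07, and in A15 light 5 are above 2, with *fam-2* at 1.94 and NCU04292 at 0.607.

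The measure of the rule itself gave the same picture in the light. In V, 7 of the 7 genes had a ratio of at least 2, with a median of 4.42. This includes *fam-2* and NCU04282, at 12.7 and 5.09 on 2 wild-type counts each, which carry no weight. The other 5 all had such a ratio, between 2.07 and 13.7. Of the genes with a mean of at least 5 CPM in the mutant, 5 of the 7 among them, the share at this ratio was 1.70% in V light. In A15, where all 7 reached 5 CPM, 5 had such a ratio, with a median of 2.37, and the share over genes was 7.27%. In V light every mutant library was above both wild-type libraries for 7 genes, the 5 with 5 CPM included, but so it was for 31.0% of genes. In A15 light this held for 4 of the 7, beside 26.7% of genes. In the dark, where the genes were chosen, 7 of 7 had a ratio of at least 2 by the rule. Over every gene that reached 5 CPM in the mutant group, the shares were 1.36% for V dark, 2.81% for S and 6.13% for A15 dark. Of the 7, 5 reached 5 CPM in V dark and in S, and all 7 did in A15 dark. Separation of all libraries held for 7 in V, the 5 with 5 CPM included (27.3% of genes), for 6 in A15 (11.4%) and for 2 in S (4.38%). Without replicate 1 of the mutant, picked on these data by its *ve-1* counts, separation held for 4 in S (12.0% of genes). There 6 of the 7 kept a ratio of at least 2 (4.71% of genes), all but NCU04282 at 1.61. The dark libraries, those of S included, were part of the choice of the genes, so the counts in the dark are no independent support.

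The set had an edge that single libraries could move. The smallest ratios inside it were those of *aod-3* in V (2.04), *eph-3* in S (2.05) and NCU04292 in A15 (2.09). Just outside were NCU07452 (*mig-2*) at 1.97 in S, NCU09678 at 1.96 in S and NCU04942 at 1.96 in V. NCU01032 and NCU10075 stayed in the set whichever of the 16 dark libraries was left out. NCU04282 and *eph-3* were each lost in 4 of these 16 repeats, *aod-3* and NCU04292 in 2 each and *fam-2* in 1.

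Within each strain, the ratios of light to dark and of aerial tissue to S differed among the 7 genes. These ratios of means include the dark libraries and were not tested. *aod-3* was higher in V light than in V dark, at 2.72 times in Δ*ve-1* and 1.52 times in the wild type, and lower in A15 light than in A15 dark, at 0.443 times in Δ*ve-1* and 0.361 times in the wild type. NCU04292 was lower in V light than in the dark, at 0.539 times in Δ*ve-1* and 0.541 times in the wild type. In A15 its light level was 0.408 times the dark level in Δ*ve-1*, while the wild-type libraries in the light lay on either side of those in the dark. NCU01032 and *fam-2* were lower in the light than in the dark in A15 of the mutant, at 0.546 and 0.517 times, with libraries of the wild type that overlapped.

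Every A15 dark library was above every S library for 4 of the 7 genes in Δ*ve-1* (*fam-2*, *aod-3*, NCU01032 and NCU10075) and for 4 in the wild type (*fam-2*, NCU01032, NCU04292 and NCU04282). Over genes with at least 1 CPM in A15 dark, the share was 31.8% in Δ*ve-1* and 40.5% in the wild type. NCU01032 was higher in A15 than in S in the dark by 4.03 times in Δ*ve-1* and 2.21 times in the wild type, and *aod-3* by 2.39 times in Δ*ve-1*. NCU04292 was higher in A15 by 2.14 times in the wild type, with overlapping libraries in the mutant. The libraries of *eph-3* overlapped between A15 and S in both strains. A15 and S also differ in medium and age.

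The genes lay on 5 chromosomes, and none on chromosome II, which holds *ve-1*. NCU04282 and NCU04292 were the nearest pair, 33602 bases apart with 10 genes between them. Of the 28 genes that lie within 2 places of one of the 7, none had a ratio of at least 2 in all 3 dark conditions. By the rule, with its minimum of 5 CPM, 10 of all 9758 genes did. Of the 28, on which no minimum CPM was put, 3 had such a ratio in some condition in the dark, and 6 had one of at most 0.5. Among the 3 was NCU01027, with means of only 0.698 CPM in Δ*ve-1* and 0.182 CPM in the wild type in A15 dark. These counts were not made over all genes, so they cannot be set against a share. Several of the 28, such as NCU10076, NCU11289, NCU04873, NCU04875 and NCU04876, had 0 CPM in every group. They could show no difference, so the counts do not say whether neighbours share the change.

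**Figure D4:**
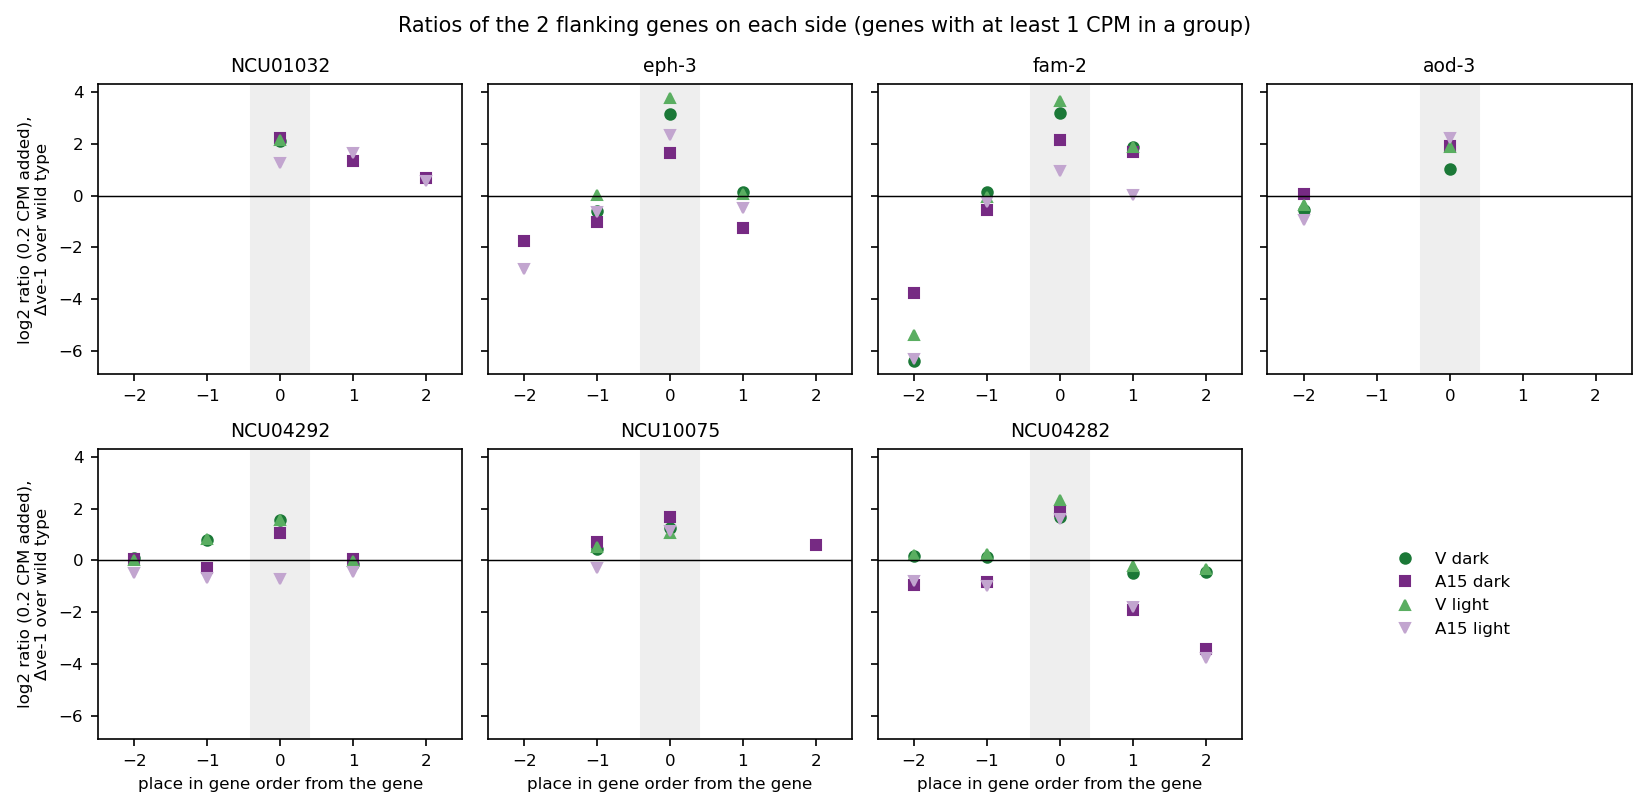
Log2 ratios of the means, Δ*ve-1* over the wild type with 0.2 CPM added, for each of the 7 genes (place 0, grey) and the 2 genes on either side in V and A15, for genes with at least 1 CPM in a group. NCU05859, next to *fam-2*, had ratios of 3.64 in V dark, 3.66 in V light, 3.20 in A15 dark and 1.00 in A15 light.

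NCU05859, on the plus strand 3035 bases from *fam-2*, was the neighbour most like it. Its means were 88.9 CPM in Δ*ve-1* and 27.6 CPM in the wild type in A15 dark, and 43.1 CPM in Δ*ve-1* and 43.0 CPM in the wild type in A15 light. In V dark it was near the floor, with means of 1.07 CPM in Δ*ve-1* and 0.148 CPM in the wild type. A gene further on the other side, NCU05855, went the opposite way: its means were 0.223 CPM in Δ*ve-1* and 35.3 CPM in the wild type in V dark, and 0 CPM in Δ*ve-1* and 15.9 CPM in the wild type in A15 light. NCU01033, 849 bases from NCU01032, had means of 8.22 CPM in Δ*ve-1* and 3.13 CPM in the wild type in A15 dark, and 5.98 CPM in Δ*ve-1* and 1.80 CPM in the wild type in A15 light. Near NCU04282, the gene NCU04284 had means of 91.0 CPM in Δ*ve-1* and 973 CPM in the wild type in A15 dark. These neighbours were chosen after their values were seen.

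Other genes named as epoxide hydrolase or fatty acid oxygenase in the study did not share the calls of *eph-3* in the light. For *fam-2* no such contrast can be drawn, because its call in V light carries no weight and it was not called in A15 light. None of the 3 (*eph-2*, *fam-3* and *fam-8*) was called in V light, where 206 of 7671 genes were called higher and 359 lower. In A15 light, 2 of the 3 were called lower in the mutant, beside 325 of 8064 genes. *eph-2* had between 4.80 and 6.83 CPM in Δ*ve-1*, against between 18.9 and 44.5 CPM in the wild type there (log2FC of −2.29, adjusted *P* value of 0.0377, edgeR). *fam-3* had between 5.62 and 8.49 CPM in Δ*ve-1*, against between 46.2 and 66.1 CPM in the wild type (log2FC of −2.85, adjusted *P* value of 0.0157, edgeR). *fam-8* had a log2FC of −0.33 (adjusted *P* value of 0.447).

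The velvet and LaeA-like list, with *ve-1*, *vos-1*, *lae-1*, NCU10101 and NCU10761, had 3 genes called higher and 2 called lower in the mutant in both stages in the light, of which 1 was the deleted gene itself. The higher ones were those set aside by name, so their direction had been part of the choice, and NCU10101 had no count in the wild type in the light and passed the filter through the mutant alone. *vos-1*, whose counterpart in *A. nidulans*, VosA, takes part in spore maturation, was lower in the mutant (log2FC of −2.52 in V and −4.31 in A15, adjusted *P* values of 0.0142 and 0.0387, edgeR). Of the 21 genes within 50 kb of *ve-1*, 20 were tested in V and 19 in A15. In V, 2 were called higher in the mutant (NCU01734 and NCU01729), beside 206 of all 7671 genes tested. In A15, 1 was called lower (NCU01720), beside 325 of 8064.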

How the data were processed

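The authors preprocessed single-end reads of 100 nucleotides with AfterQC, mapped them with TopHat 2.11 to the NC12 assembly and, in SeqMonk, took strand-specific counts of exons for each gene. They deposited raw counts for 9758 genes, without normalization, and each of the 24 columns was matched to its label. Symbols and coordinates came from a reference table of the NC12 assembly and from the count table.

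Ratios used CPM from column totals. The strains were compared in the 4 light libraries of each stage with edgeR 4.0.16 (limma 3.58.1, R 4.3.3): filterByExpr at a minimum count of 10, TMM, quasi-likelihood F test, Benjamini-Hochberg adjustment over all genes tested. An interaction of strain and stage was fitted on the 8 light libraries. Scripts were tested on simulated data. Alternatives were the RLE normalization, library size only, no filter, DESeq2 1.42.0 (also with the thresholds of the study, chosen after seeing the data), the dark libraries of the stage added, all 8 light libraries in 1 fit, the thresholds of the study (an absolute log2FC of 2 and an adjusted *P* value of 0.001), the replicate number as a block, and each library left out in turn. The genes and the gene lists were chosen with earlier results of these data known. All 7 genes are named. Other lists were compared in the light. Of 6 conidiation genes, 4 were tested in V with 0 called, and 6 in A15 with 1 called higher. Of 8 genes of sexual development, 4 were tested in V and 6 in A15, with none called. Of 3 genes of mating type A, 0 were tested in V and 2 in A15, with 1 called higher. Over all genes tested, 206 of 7671 were called higher and 359 lower in V. In A15, 369 of 8064 were called higher and 325 lower. The methods of the study state independent biological replicates for RNA experiments in general, and the labels do not name a culture for each library. *P* values measure only the spread between these libraries. Promoters and *ve-2* were not analysed here.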

Additional observations from a re-analysis of the deposited data

Results flagged for a closer look

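The strain effect on *eph-3* was called different between the stages in the light, close to the threshold, by the test of the interaction on the 8 light libraries. It was larger in V than in A15 by 1.33 on the log2 scale (SE 0.33, adjusted *P* value of 0.0485, edgeR). The call was lost with the RLE normalization in edgeR (0.0543), with the replicate block (0.0655) and in 6 of the 8 fits that left out 1 library. Both mutant libraries were above both wild-type libraries in each stage. Over all 8175 genes, 321 were called with a larger effect in V and 398 with a smaller one, and *eph-3* was the only one of the 7 that was called. No library stood apart from its group in S by Dixon's test for any of the 7 genes, over the 14 groups of 4 tested. With 4 libraries in a group the test finds only wide gaps, and it covered no other gene. In S, replicate 1 of the mutant had 12.7 CPM of *ve-1*, against between 1.20 and 2.85 CPM in the other mutant libraries.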

How the results depend on the processing

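The number of genes that met the rule was 7. It was 3 with 1 CPM added, 23 at a ratio of 1.5 and 0 at a ratio of 3. It was 0 when every mutant library had to be at least 2 times the highest wild-type library. With CPM scaled by TMM it was 8, with NCU04282 lost and *mig-2* and NCU09678 gained. It was between 5 and 8 with 1 library left out. With every mutant library only asked to be above the wild type, a setting chosen after seeing the data, 6 genes met it, of which 2 are among the 7. In V in the light, 7 genes were called higher in the mutant, or 5 apart from *fam-2* and NCU04282, which passed the filter through the mutant alone. With all 8 light libraries in the fit it was 3 (13 of 8175 genes, 0.159%), and with 1 library left out between 5 and 7, or between 4 and 5 apart from these 2. In A15 in the light, 4 genes were called (4.58% of all genes), 2 with the dark libraries added (1.75%), 2 with library size only (2.108%), and between 0 and 6 with 1 library left out (between 0 and 15.5% of genes). With library size only, the median log2FC of all genes in A15 was −0.17, against −0.03 with TMM. The number with a ratio of at least 2 in A15 in the light, 5, was between 2 and 6 with 1 library left out. The interaction, called for 1 gene, was called for 2 with DESeq2 (*eph-3* and *fam-2*), 0 with RLE, 0 with the replicate block, and between 0 and 3 with 1 library left out. With the thresholds of the study put on the edgeR test, 0 of the 7 were called in V (2 of 7671 genes), 0 in A15 (0 of 8064, where 1162 were higher at an unadjusted *P* value under 0.05) and 0 for the interaction. These thresholds were also put on the test of DESeq2, which the study used, a setting chosen after seeing the data. They called 3 in V (*eph-3*, NCU01032 and *fam-2*, beside 0.2998% of genes). Apart from *fam-2*, which passed the filter through the mutant alone, it was 2 in V. They called 2 in A15 (*eph-3* and *aod-3*, beside 1.302%) and 0 for the interaction. Where 1 library was left out, its group was taken to vary like the others. The interaction of NCU10075, −0.24, was between −0.47 and 0.028 with 1 library left out, positive without replicate 2 of the wild type in V, and the log2FC of NCU04292 in A15, −0.62, was between −1.38 and 1.10. The labels do not say what a shared replicate number marks, and 2 pairs in a comparison do not settle whether the libraries are paired: the differences between replicates correlated between the strains by 0.589 in V and 0.162 in A15. With the replicate block, 7 genes were called in V, beside 13.1% of genes against 2.69% without it, and 5 in A15, adding NCU04282, beside 7.58% against 4.58%. *fam-2* and NCU04282 in submerged mycelia rest on few counts.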
